A study of Homo sapiens with 12 samples.

Results

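The 8 mature miRNAs described here are the products of the miR-34, miR-192, miR-194, and miR-215 genes, followed by small RNA sequencing of A549 cells through TGF-β-induced EMT: hsa-miR-34a-5p, hsa-miR-34b-5p, hsa-miR-34b-3p, hsa-miR-34c-5p, hsa-miR-34c-3p, hsa-miR-192-5p, hsa-miR-194-5p, and hsa-miR-215-5p, named below without the prefix for human. They were chosen by name from the 2588 mature miRNAs of the count table, and all 8 are in it. Where a mature miRNA stood on several rows, the row with the highest total was kept, which touched only miR-194-5p. A549 is a human lung adenocarcinoma line of alveolar epithelial origin. All 6 libraries came from this line, and the labels give them the same treatment but for its length: 2 libraries at 0 h, before TGF-β was added, 2 after 24 h, and 2 after 96 h with TGF-β. The labels list each library as 2 samples, whose titles differ in a number that was read here as a date. These are called runs below, though no label says whether they are sequencing runs of the same library or separate preparations. The first run bears the same date in all 6. The second bears one date in both 24 h libraries and 0 h replicate 2, and a later one in both 96 h libraries and 0 h replicate 1, so between 24 and 96 h the date of the second run and the time point cannot be told apart. According to the study's methods, cells stood in serum-free medium before the cytokine was given, and medium with TGF-β1 was replaced during the course. No untreated culture of 24 or 96 h was analysed here, so the effect of TGF-β and that of time in culture cannot be told apart. No label says that the 2 libraries of a time point came from separate cultures, so p-values measure only the spread between these libraries, which may be technical.

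The miR-34 family is known for restraining growth in many epithelial tissues and tumours. Its products repress genes of cell-cycle entry and survival, such as CDK6, MET, and BCL2, and also SNAI1, a transcription factor that drives EMT. miR-192, miR-194, and miR-215 are made from a pair of shared precursor transcripts, are best known from gut, liver, and kidney epithelium, and repress, among others, the EMT factor ZEB2.

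An miRNA recognizes its targets mainly through its seed, bases 2 to 8 from the 5′ end. Members with the same seed therefore share most of their predicted targets. The mature sequences are those of RefSeq for GRCh38.p14, 5′ to 3′, with the seed in capitals. The 5p strands of miR-34a and miR-34b hold the same run of bases, shifted by 1 position, so that their seeds differ in register. miR-34c-5p is known to have the seed of miR-34a-5p, and its sequence was not compared here:
miR-34a-5p: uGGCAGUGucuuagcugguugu
miR-34b-5p: uAGGCAGUgucauuagcugauug
miR-34b-3p: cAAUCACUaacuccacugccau
miR-34c-3p: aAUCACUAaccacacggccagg

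miR-192-5p and miR-215-5p, made from different chromosomes, have an identical seed, and over 21 bases they differ at 2 positions, C1A and C20A, counted from the 5′ end with the base of miR-192-5p first. miR-194-5p, which is made beside both of them, has another seed:
miR-192-5p: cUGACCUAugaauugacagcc
miR-215-5p: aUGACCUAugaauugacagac
miR-194-5p: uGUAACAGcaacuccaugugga

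In the GRCh37 annotation MIR34A (chr1:9211727-9211836, minus strand) lies in an exon of its own host lncRNA, MIR34AHG. MIR34B (chr11:111383663-111383746) and MIR34C (chr11:111384164-111384240) lie 417 bases apart on the plus strand, in exons of the lncRNA MIR34BHG and opposite an intron of BTG4. MIR192 (chr11:64658609-64658718) and MIR194-2 (chr11:64658827-64658911) lie 108 bases apart on the minus strand in exons of the lncRNA MIR194-2HG. MIR215 (chr1:220291195-220291304) and MIR194-1 (chr1:220291499-220291583) lie 194 bases apart on the minus strand, opposite an intron of IARS2. miR-194-5p therefore has a pair of precursors on different chromosomes, and the reads of the mature form do not separate them. The sequences below show why, without the bases before the mature part. That part, in capitals, is the same in both precursors, and the bases printed after it differ:
MIR194-1: UGUAACAGCAACUCCAUGUGGAcugugua
MIR194-2: UGUAACAGCAACUCCAUGUGGAagugccc

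Library totals on mature miRNAs were 2335185 to 5971197 reads. Levels are given as TMM-normalized CPM (CPM stands for reads of the miRNA per 1000000 reads of the library, here after trimmed-mean scaling), and they were not divided by length since a read covers the whole mature miRNA. TMM factors ran from 0.738 to 1.36. miR-21-5p alone took 52.4 to 58.1% of the reads at 0 and 24 h and 63.8 to 65.5% at 96 h, so the scaling of the libraries bears on every change below. As a check of the label, the summed level of 6 epithelial miRNAs (the miR-200 family and miR-205-5p) was 119 to 120 CPM at 0 h and 235 to 243 CPM at 96 h, with miR-205-5p at 0 counts in both 96 h libraries. Most of the gain was in miR-200b-3p (44.01 to 134 CPM on average) and miR-200a-3p (40.9 to 71.8 CPM), while miR-141-3p was at -1.14 on the log2 scale (SE 0.59, adjusted p = 0.141 in edgeR) and miR-200c-3p at -0.035 (SE 0.29, adjusted p = 0.925). As a share of the total count the sum was 139 to 163 CPM at 0 h and 179 to 186 CPM at 96 h. The summed level of 5 miRNAs typical of fibroblasts or smooth muscle went from 5.37 to 8.79 CPM up to 418 to 452 CPM, nearly all of it miR-143-3p, while miR-214-3p stood at 0 counts throughout. Blood miRNAs, nearly all of it miR-486-5p, went from 134 to 136 CPM down to 29.3 to 35.5 CPM with miR-223-3p and miR-150-5p at 0 counts, and the liver miRNA miR-122-5p from 2.69 to 5.49 down to 0.271 to 0.908 CPM. The part of these shifts in the changes below was not tested.

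The members ranged in level from 0.298 to 9119 CPM, and miR-192-5p made up most of their reads. Together they took 0.767 to 1.26% of all reads, and miR-192-5p held 76.3 to 84.1% of the members' reads in each library. Ranked by reads, miR-192-5p stood between places 9 and 16, miR-194-5p between 51 and 57, miR-34a-5p between 77 and 101, miR-34c-5p between 116 and 141, and miR-215-5p between 121 and 157. The levels of miR-34c-5p and miR-215-5p crossed between time points and cannot be ordered. miR-34b-5p, miR-34b-3p, and miR-34c-3p followed with 1 to 23 counts in a library. Among the 5p strands of the miR-34 family, miR-34a-5p held 66.5 to 75.9% of the reads.

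**Figure D1:**
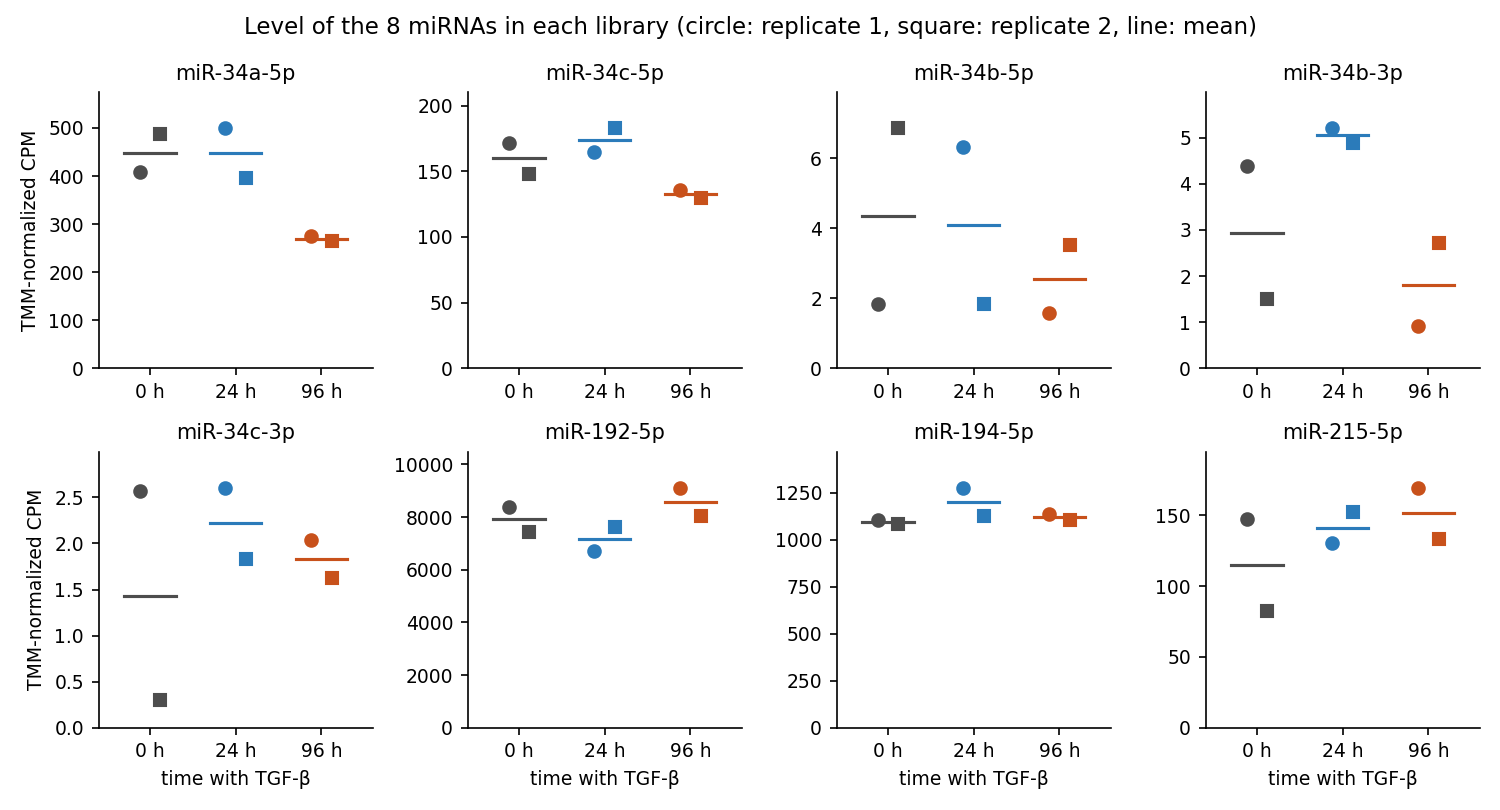
TMM-normalized CPM (vertical axes, each from 0) of the 8 miRNAs at 0, 24, and 96 h with TGF-β, with a circle for replicate 1, a square for replicate 2, and a line at their mean. Both 96 h libraries of miR-34a-5p (276 and 264 CPM) lie below all 4 earlier ones, while miR-192-5p and miR-194-5p stay close to their level at 0 h on this scale but are lower at 96 h with scaling to total counts.

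miR-34a-5p was the 1 member whose change passed the adjusted p with TMM scaling. It held 1115 and 1631 counts in the 0 h libraries, 1343 and 1292 in those of 24 h, and 1215 and 973 in those of 96 h. Its TMM-normalized level was 408 and 487 CPM before treatment, 500 and 395 CPM after 24 h, and 276 and 264 CPM after 96 h. The 0 h and 24 h libraries overlapped, and both 96 h libraries lay below all 4 others. The means were 448 ± 55.3 (SD, n = 2), 448 ± 74.0, and 270 ± 8.33 CPM. Against 0 h, miR-34a-5p fell by 0.73 on the log2 scale at 96 h (SE 0.16, 95% interval -1.10 to -0.36, edgeR quasi-likelihood test with Benjamini-Hochberg adjustment over 491 tested miRNAs, adjusted p = 0.00618). At 24 h its log2-fold change was -0.0012 (SE 0.16, 95% interval -0.37 to 0.36, adjusted p = 0.995 in the same edgeR fit). From 24 to 96 h the log2-fold change was -0.73 (SE 0.16, adjusted p = 0.0230 in the same edgeR fit), which is the test of the difference between the 2 changes from 0 h, since those share the 0 h libraries. In RNA of whole cultures, fewer cells with an miRNA and less of it per cell cannot be told apart.

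The size of this fall stayed short of the study's threshold for differential expression, an adjusted p under 0.05 together with an absolute log2-fold change above 1. The libraries at 0 h differed beyond counting error. Replicate 1 had 477 CPM of the total count (95% Wilson interval 450 to 506), and replicate 2 had 664 CPM (633 to 697). At 24 h the shares differed likewise, at 528 CPM (500 to 557) in replicate 1 and 402 CPM (381 to 424) in replicate 2. At 96 h the shares were 203 CPM (192 to 215) and 209 CPM (196 to 222), and there the intervals overlapped. Without 96 h replicate 1 the log2-fold change from 0 h was -0.74 with an adjusted p of 0.0529 in edgeR, and without 96 h replicate 2 it was -0.66 with an adjusted p of 0.0694. Against the 0 h library with the same run dates, replicate 1, the change at 96 h was -0.59 (SE 0.17, adjusted p = 0.0127 in edgeR), and against 0 h replicate 2, which has the run dates of the 24 h libraries, the change at 24 h was -0.084 (SE 0.17, adjusted p = 0.769). Within a library, the runs gave nearly the same level: 481 and 482 CPM of the run in 24 h replicate 1, 371 and 370 CPM in 24 h replicate 2, and 191 and 187 CPM in 96 h replicate 1. The fall from 24 to 96 h no longer passed the adjusted p when any 1 of the 24 h and 96 h libraries was left out. Over the fits without 1 library its log2-fold change ran from -0.81 to -0.55.

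In this paragraph the edgeR counts and the shares of all tested miRNAs come from the fit with TMM scaling. At 24 h none of the 7 members tested passed either threshold. Of all tested miRNAs, 3.46% were called with both thresholds and 7.13% passed on the adjusted p alone. None of the 7 had an unadjusted p under 0.05 in edgeR or in DESeq2. At 96 h against 0 h, 0 of 7 were called with both thresholds in edgeR and in DESeq2. In edgeR 25.9% of all tested miRNAs were called, and the share in DESeq2 was not taken. On the adjusted p alone 1 of 7 was lower, miR-34a-5p, against 21.2% of all tested miRNAs lower, and it was also the 1 member with an unadjusted p under 0.05 in either tool. At 96 h against 24 h, 0 of 7 were called in edgeR or DESeq2, against 5.91% of all tested miRNAs in edgeR. miR-34a-5p alone passed on the adjusted p, against 3.67% of all tested miRNAs lower. There, 3 members had an unadjusted p under 0.05 in edgeR and 1 in DESeq2. The share of all tested miRNAs under that unadjusted p was not taken, so the counts of members under it have no background here. miR-34c-3p did not pass the filter on low counts. The 3 comparisons share libraries, so their values are not independent of one another. With 2 libraries against 2, permuting the libraries of 1 miRNA exactly, two-sided, gives no p below 0.333.

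**Figure D2:**
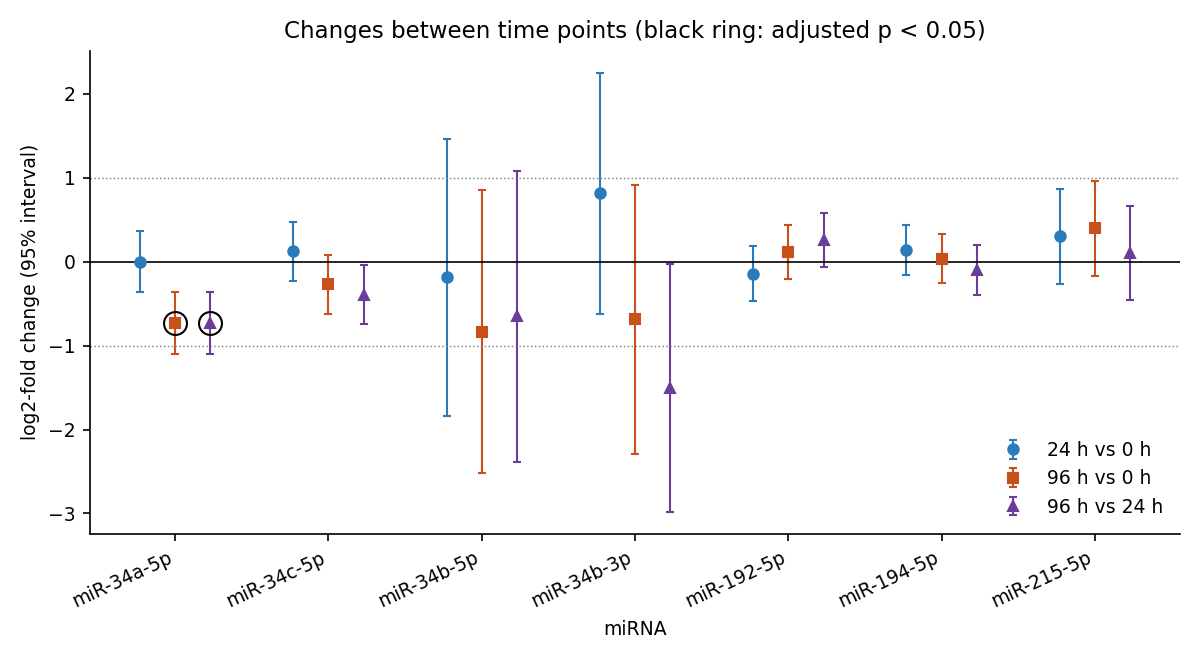
Log2-fold change (vertical axis) with its 95% interval for the 7 tested members in the 3 comparisons of time points, from the edgeR fit to all 6 libraries with TMM scaling. Black rings mark an adjusted p under 0.05, which only miR-34a-5p reached, at -0.73 in both comparisons with 96 h; dotted lines mark the fold threshold. The points of miR-192-5p, miR-194-5p, and miR-215-5p at 96 h against 0 h lie above 0 with TMM and below 0 with scaling to total counts.

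miR-34c-5p, the second product of the miR-34 family by level, had 469 and 495 counts in the 0 h libraries, 443 and 598 in those of 24 h, and 597 and 477 in those of 96 h. Its TMM-normalized level was 172 and 148 CPM, then 165 and 183 CPM, then 135 and 129 CPM. Both 96 h libraries were below all earlier ones, as with miR-34a-5p, but the gap was narrower and did not pass the test. The log2-fold change at 96 h was -0.27 against 0 h (SE 0.16, 95% interval -0.62 to 0.08, adjusted p = 0.190 in edgeR) and -0.39 against 24 h (SE 0.16, adjusted p = 0.126). At 24 h it was 0.12 (SE 0.16, adjusted p = 0.629). Over the 7 tested members, the ranges of the 96 h and the 0 h libraries did not overlap in 3, lower in miR-34a-5p and miR-34c-5p and higher in miR-194-5p, against 71.7% of all tested miRNAs.

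The other strands of the miR-34b/c cluster were near the limit of detection. miR-34b-5p had 5 and 23 counts in the 0 h libraries, 17 and 6 in those of 24 h, and 7 and 13 in those of 96 h. miR-34b-3p had 12 and 5, then 14 and 16, then 4 and 10 counts. miR-34c-3p had 7 and 1, then 7 and 6, then 9 and 6 counts. In miR-34b-5p and miR-34c-3p the libraries of 1 time point differed as much as time points did. miR-34b-3p had the widest single log2-fold change of the members, with 0.82 at 24 h against 0 h (SE 0.64, adjusted p = 0.441 in edgeR) and -1.51 at 96 h against 24 h (SE 0.66, unadjusted p = 0.0460, adjusted p = 0.156). Its 0 h and 24 h ranges did not overlap, and those of miR-194-5p did not either, 2 of the 7 tested members against 57.8% of all tested miRNAs. The 2 libraries of a time point together gave miR-34b-3p 3.55 CPM of the total count at 0 h (95% exact Poisson interval 2.07 to 5.68), 5.21 at 24 h (3.51 to 7.44), and 1.32 at 96 h (0.720 to 2.21). A count of 0 in 1 library would allow up to 3 counts, which is 0.502 to 1.28 CPM of the total count.

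The other strand of miR-34a's own precursor, miR-34a-3p, which is usually discarded, was rare, with 7 and 11 counts in the 0 h libraries, 5 and 6 in those of 24 h, and 7 and 11 in those of 96 h. The ratio of miR-34a-5p to miR-34a-3p was 159 and 148 before treatment, 269 and 215 after 24 h, and 174 and 88.5 after 96 h, so the 0 h and 96 h ranges overlapped. Both 24 h ratios lay above those of all other libraries, but they rest on 5 and 6 counts of the 3p strand. A change of strand use was not tested.

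miR-192-5p, the most abundant member, had 22915 and 24952 counts in the 0 h libraries, 18074 and 24941 in those of 24 h, and 40189 and 29669 in those of 96 h. Its TMM-normalized level was 8394 and 7445 CPM, then 6726 and 7630 CPM, then 9119 and 8047 CPM. The 0 h and 96 h libraries overlapped on this scale. The log2-fold change at 96 h against 0 h was 0.12 (SE 0.15, 95% interval -0.21 to 0.44, adjusted p = 0.542 in edgeR) with TMM, but -0.61 (adjusted p = 0.00225) with libraries scaled to their total counts. At 24 h it was -0.14 (SE 0.15, adjusted p = 0.558) with TMM, but -0.43 (adjusted p = 0.0386 in edgeR) with total counts. From 24 to 96 h it was 0.26 (SE 0.15, adjusted p = 0.270) with TMM.

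miR-194-5p, the partner of miR-192 and of miR-215 on their transcripts, had 3012 and 3631 counts in the 0 h libraries, 3432 and 3689 in those of 24 h, and 5014 and 4082 in those of 96 h. That was 1103 and 1083 CPM, then 1277 and 1128 CPM, then 1138 and 1107 CPM after TMM scaling, the narrowest spread among the members relative to the level. Its log2-fold change at 96 h against 0 h was 0.04 (SE 0.13, 95% interval -0.26 to 0.33, adjusted p = 0.838 in edgeR) with TMM, and -0.69 (adjusted p = 0.00442) with total counts. Its row of lower total held 75.9 to 84.3% of the counts of the kept row. Since both precursors give the same mature reads, neither row was read as the output of 1 gene. miR-194-3p, which is made from the same precursors as miR-194-5p, had 55 and 62 counts in the 0 h libraries, 53 and 60 in those of 24 h, and 84 and 69 in those of 96 h, with a log2-fold change of -0.03 at 96 h against 0 h (SE 0.23, adjusted p = 0.922). miR-192-3p stayed at 3 to 9 counts in a library, and miR-215-3p was at 0 counts in all 6.

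miR-215-5p, which has the seed of miR-192-5p, was far rarer: the counts of miR-192-5p were 50.2 to 90.1 times as high in the same library. miR-215-5p had 403 and 277 counts in the 0 h libraries, 351 and 497 in those of 24 h, and 747 and 492 in those of 96 h. Its TMM-normalized level was 148 and 82.7 CPM, then 131 and 152 CPM, then 169 and 133 CPM, and 0 h replicate 2 was the lowest of the 6 libraries. The log2-fold change was 0.30 at 24 h (SE 0.26, adjusted p = 0.467 in edgeR) and 0.40 at 96 h against 0 h (SE 0.25, 95% interval -0.16 to 0.97, adjusted p = 0.223), and the latter was -0.30 with total counts.

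The low library for miR-215-5p was low in only 1 of its 2 runs. The normalized table of the authors allows the runs of 5 libraries to be separated, and in 0 h replicate 2 the deeper run held 68 counts of miR-215-5p (44.6 CPM of that run) and the other run 209 (177 CPM). The log2 ratio between these runs was -1.99, the widest of the 231 miRNAs with at least 100 counts in that library. The next widest was 1.19, for miR-1246, and the median absolute ratio was 0.08. In the other 4 libraries the runs of miR-215-5p differed by at most 0.15 on the log2 scale. Its sister by seed, miR-192-5p, differed between runs by at most 0.06 in any of the 5 libraries, miR-34a-5p by at most 0.04, miR-194-5p by at most 0.15, and miR-34c-5p by at most 0.27. With the deeper run alone standing for 0 h replicate 2, the change of miR-215-5p at 96 h was 0.70 (SE 0.47), and with the other run alone it was 0.04 (SE 0.18). At 24 h the values were 0.60 and -0.06. Without 0 h replicate 1, the changes passed the adjusted p, at 0.81 for 24 h (adjusted p = 0.0121 in edgeR) and 0.92 for 96 h (adjusted p = 0.00126), and without 0 h replicate 2 they were -0.05 and 0.05. Of these, 0.81 for 24 h and 0.05 for 96 h compare libraries with the same run dates.

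**Figure D3:**
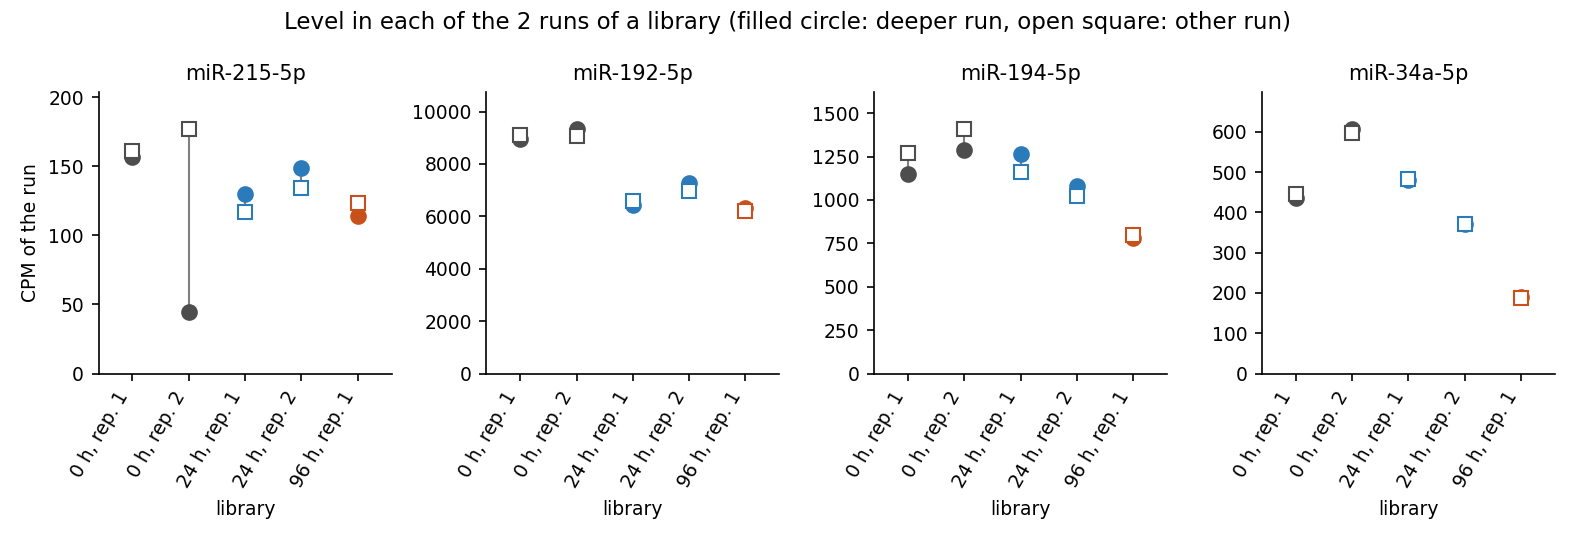
CPM (vertical axes, from 0) of 4 members in each of the 2 runs of the 5 libraries whose runs could be separated, with a filled circle for the deeper run and an open square for the other. The runs nearly coincide except for miR-215-5p in 0 h replicate 2, at 44.6 and 177 CPM.

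Total-count scaling moved all tested miRNAs together, and the order of the 7 tested members by their change at 96 h was the same under the 4 scalings. A scaling shifts all miRNAs of a library alike, so neither this order nor the distance to the median is a test of the changes. At 96 h against 0 h the change of the median tested miRNA was -0.10 with TMM, -0.03 with DESeq2 size factors, -0.45 with total counts leaving out miR-21-5p, and -0.83 with total counts. Relative to that median, miR-34a-5p was at -0.63 with TMM and at -0.64 with total counts. miR-34c-5p was at -0.17 and -0.16, miR-192-5p at 0.22 and 0.22, miR-194-5p at 0.14 and 0.14, and miR-215-5p at 0.50 and 0.52. miR-34a-5p was lower at 96 h under each of the 4 scalings, from -0.66 with DESeq2 size factors to -1.47 with total counts. With total counts it passed both thresholds at 96 h against 0 h, where 43.8% of all tested miRNAs did, and at 96 h against 24 h, where 14.7% did, and with total counts leaving out miR-21-5p it passed both against 0 h (-1.09), where 32.6% did. On the adjusted p alone, 4 of the 7 tested members were lower at 96 h against 0 h with total counts, where 56.8% of all tested miRNAs were: miR-34a-5p, miR-34c-5p at -0.99 (SE 0.16, adjusted p = 0.00109 in edgeR), miR-192-5p, and miR-194-5p. With total counts 1 of the 7 passed at 24 h against 0 h, miR-192-5p at -0.43. At 96 h against 24 h, 3 did: miR-34a-5p, miR-34c-5p at -0.83, and miR-194-5p at -0.54. The shares of all tested miRNAs passing on the adjusted p alone in these comparisons are not given here.

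**Figure D4:**
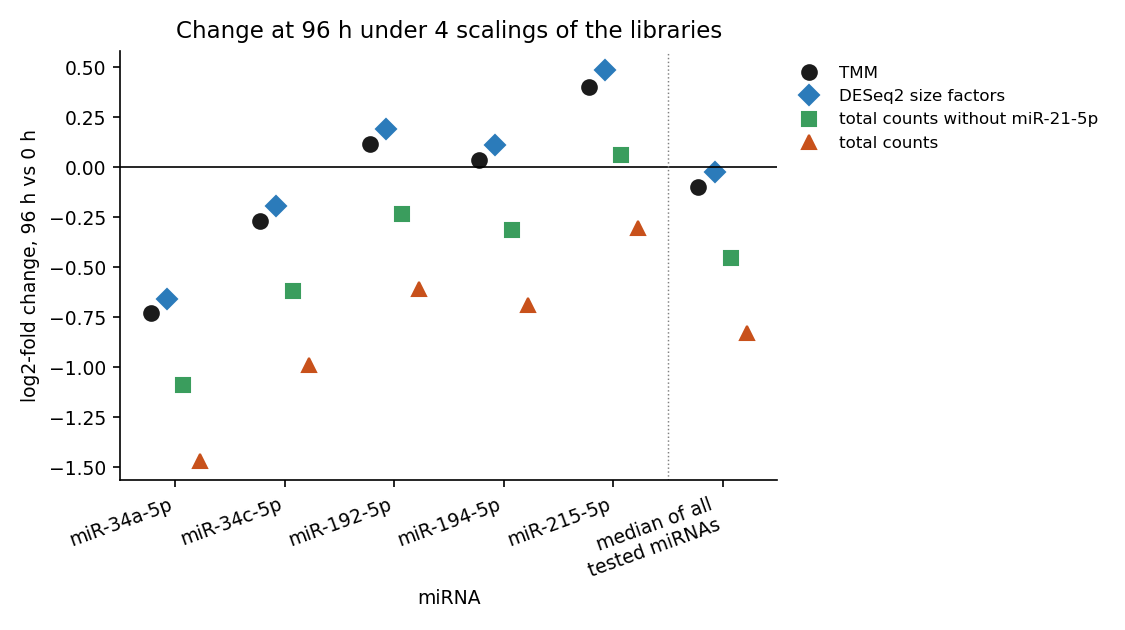
Log2-fold change at 96 h against 0 h (vertical axis) of 5 members and the median of all tested miRNAs, with libraries scaled by TMM, by DESeq2 size factors, by total counts without miR-21-5p, and by total counts. miR-34a-5p lies below the median of all tested miRNAs under each scaling, while miR-192-5p and miR-194-5p lie above 0 with the first 2 scalings and below 0 with the others, and miR-215-5p lies below 0 with total counts alone.

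Ratios between members within a library do not depend on how libraries are scaled. The log2 ratio of miR-34a-5p to miR-192-5p was -4.36 and -3.94 before treatment, -3.75 and -4.27 after 24 h, and -5.05 and -4.93 after 96 h, so that both 96 h libraries lay below all others. The difference of the means, 96 h minus 0 h, was -0.84 against a pooled SD of 0.22. Within the miR-34 family, the log2 ratio of miR-34a-5p to miR-34c-5p was 1.25 and 1.72 before treatment, 1.60 and 1.11 after 24 h, and 1.03 and 1.03 after 96 h. The 96 h ratios were the lowest here too, with a difference of -0.46 from 0 h against a pooled SD of 0.24. For the neighbours miR-192-5p and miR-194-5p the 0 h and 96 h ranges overlapped: their log2 ratio was 2.93 and 2.78 before treatment, 2.40 and 2.76 after 24 h, and 3.0 and 2.86 after 96 h, a difference of 0.08 from 0 to 96 h against a pooled SD of 0.10. For miR-192-5p to miR-215-5p the difference was -0.33, against a pooled SD of 0.34, and for miR-34c-5p to miR-34b-3p it was 0.44, against a pooled SD of 1.06. The ratios were not tested.

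**Figure D5:**
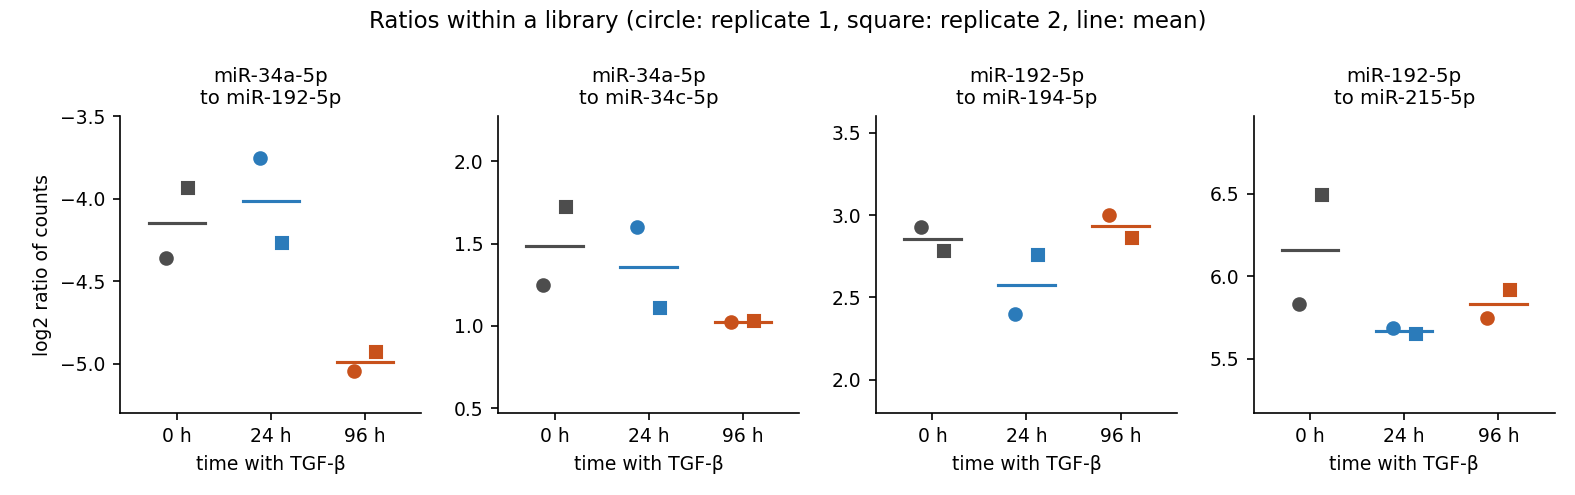
Log2 ratio of counts within a library (vertical axes, all spanning the same range) for 4 pairs of members at 0, 24, and 96 h, with a circle for replicate 1, a square for replicate 2, and a line at the mean. The ratio of miR-34a-5p to miR-192-5p is lowest at 96 h, at -5.05 and -4.93, while miR-192-5p to miR-194-5p overlaps between 0 and 96 h.

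Outside the members, the seeds of those whose sequences were compared stood in 4 other miRNAs, and most of these were rare. The miR-449 family, which is made in multiciliated epithelium and is grouped with miR-34, shares the seed of miR-34a-5p in miR-449a and miR-449b-5p and that of miR-34b-5p in miR-449c-5p, shown here beside miR-34a-5p for the likeness of their 5′ ends:
miR-34a-5p: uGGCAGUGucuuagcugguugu
miR-449a: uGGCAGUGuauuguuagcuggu
miR-449b-5p: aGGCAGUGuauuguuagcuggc
miR-449c-5p: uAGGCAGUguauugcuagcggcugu

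miR-449a had 3 and 15 counts in the 0 h libraries, 9 and 7 in those of 24 h, and 4 and 2 in those of 96 h, with a log2-fold change at 96 h against 0 h of -1.92 (SE 0.84, unadjusted p = 0.0443, adjusted p = 0.0815 in edgeR). miR-449c-5p had 10 to 22 counts in a library and a log2-fold change of -0.98 (SE 0.48, adjusted p = 0.113), and miR-449b-5p had 0 to 2 counts and was not tested. miR-2682-5p, which also has the seed of miR-34b-5p, had 127 to 279 counts and a log2-fold change of 0.25 (SE 0.20, adjusted p = 0.351).

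Likeness to other miRNAs was measured as the root mean square difference of centred log2 levels over the 6 libraries, which share their scaling. Over the 321 miRNAs that averaged 10 CPM or more, those most like miR-34a-5p were miR-328-3p at 0.10, miR-324-3p at 0.12, and miR-106b-5p at 0.13, beside a median of 0.47 over all of them. For miR-34c-5p the nearest was let-7d-5p at 0.06, and for miR-192-5p it was miR-125a-3p at 0.06. For miR-194-5p the nearest 3 were miR-505-3p at 0.06, let-7b-5p at 0.07, and its opposite strand, miR-194-3p, at 0.07. For miR-215-5p the nearest was miR-218-5p at 0.10. Neither miR-34c-5p nor any other member was among the 3 nearest to miR-34a-5p.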

How the data were processed

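Small RNA libraries of A549 cells were prepared with a kit from Illumina and run on a HiSeq 2000. The authors counted reads per mature miRNA and precursor with miRDeep2 and deposited raw counts, with the runs of a library already added up; the submitters' notes name hg19 and FastQC. The authors also deposited a normalized table, a signal that adds the runs of a library after each was brought to one total. 1 column of that table repeats another and was not used, so the runs of 96 h replicate 2 could not be separated. In the other 5 libraries, 99.9 to 100.0% of entries with up to 50 counts came out as whole reads of 2 runs (tolerance 0.01).

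The counts were fitted in edgeR 4.0.16 under R 4.3.3: TMM, filterByExpr with a minimum count of 10, and a quasi-likelihood fit with time as the only term over all 6 libraries, which kept 491 of 1417 miRNAs with a count. P-values were adjusted with Benjamini-Hochberg over all tested miRNAs, and calls used the study's thresholds, 0.05 for the adjusted p and 1 for the absolute log2-fold change. DESeq2 1.42.0 and other scalings, filters, and library sets were alternatives; the runs of 0 h replicate 2 taken singly and the ratio of miR-34a-5p to miR-34c-5p were added after seeing the data. The fit was tested on simulated data. Wilson and Poisson intervals cover counting error only: the reads carry no molecular identifiers and need not stand for separate molecules.

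Named were the 8 members, the other strands of their precursors, miRNAs with a member's seed, lists of cell-type miRNAs (epithelial, fibroblast or smooth muscle, blood, and liver), and the 3 miRNAs most like each member; miR-21-5p was added for the scaling. Members and lists were chosen with earlier results of these data known, and 2 further lists are not reported here. Positions are from a GENCODE annotation of GRCh37, with MIR194-2 placed by an exact match of its RefSeq precursor.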

Additional observations from a re-analysis of the deposited data

Results flagged for a closer look

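The change of miR-34a-5p differed between the later and the early time point. Its log2-fold change from 0 h was -0.0012 at 24 h and -0.73 at 96 h, and the test of the difference, the comparison of 96 h with 24 h, gave -0.73 (SE 0.16, adjusted p = 0.0230 in edgeR). The second runs of the 24 h and of the 96 h libraries bear different dates, which cannot be told apart from the time points. Both 96 h libraries were lower than both 24 h libraries. The difference passed the adjusted p in 12 of 16 alternatives, with adjusted p from 0.00107 to 0.256, and the exceptions were the fits without either 24 h library or either 96 h library.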

How the results depend on the processing

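Of 334 alternative values of the members' changes, 290 kept their direction and their side of the adjusted p threshold. Another 30 changed sign and were counted as such whatever their adjusted p. Of the rest, 8 newly passed and 6 no longer did, while 75 of 78 counts of called members and ratios stayed within their limits. Exceptions among the counts were 1 called member, miR-34a-5p, at 96 h against 0 h with total counts and with total counts leaving out miR-21-5p, and 1 at 96 h against 24 h with total counts. Changes of sign at 24 h against 0 h were miR-34a-5p at 0.0073 with DESeq2 size factors, 0.0072 with the DESeq2 Wald test, 0.025 with no filter, and 0.0015 with the deeper run of 0 h replicate 2, where miR-34b-5p was 0.15. With total counts and without miR-21-5p in the total, miR-34c-5p was -0.16 and -0.055 and miR-194-5p -0.15 and -0.044, and miR-215-5p was -0.058 with the other run. At 96 h against 0 h, miR-192-5p was -0.61 and -0.24 and miR-194-5p -0.69 and -0.32 with these totals. Of these, -0.61 and -0.69 passed the adjusted p in edgeR. miR-194-5p was -0.018 with the other run, and miR-215-5p was -0.30 with total counts. At 96 h against 24 h, miR-192-5p was -0.18 with total counts, and miR-215-5p -0.34 and -0.074 with the totals. Leaving out 1 library at a time gave sign changes for miR-34a-5p (-0.14 to 0.14), miR-34b-5p (-1.23 to 1.10), and miR-215-5p (-0.050 to 0.81) at 24 h, for miR-34b-5p (-1.44 to 0.45) and miR-34b-3p (-1.57 to 0.27) at 96 h against 0 h, and for miR-34b-5p (-1.24 to 0.45), miR-194-5p (-0.10 to 0.0018), and miR-215-5p (-0.026 to 0.34) at 96 h against 24 h. In these fits the lone library of a time point was assumed to vary like the others. The change of miR-34a-5p at 96 h against 0 h ran from -0.81 to -0.59 in them. Beyond the scaling itself, the cause was not tested.

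Libraries with the same replicate number in their titles were compared by the correlation of their deviations from the mean of their time point. It was -0.31 for 0 and 24 h, 0.33 for 0 and 96 h, and -0.20 for 24 and 96 h. With 2 libraries per time point, these values cannot decide whether same-numbered libraries were handled together. With the replicate block miR-34a-5p was at -0.73 (adjusted p = 0.00597 in edgeR) at 96 h against 0 h and at -0.73 (adjusted p = 0.0204) against 24 h, and no member's call changed. miR-34b-5p and miR-34b-3p gave no value at 96 h against 0 h in the fit to those libraries alone, where they did not pass the filter. At 1 to 23 counts, depth limits both of them and miR-34c-3p.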
